A study of Mus musculus with 3 samples.

Results

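Antibody-secreting cell genes are the regulators, secretion factors and surface proteins of plasma cells, the end stage of the B lineage that releases antibody. Here they were 10 genes (Prdm1, Irf4, Xbp1, Pou2af1, Jchain, Mzb1, Derl3, Txndc5, Sdc1 and Slamf7), found by symbol among 23185 named genes of the deposited table, with the antibody loci themselves left out. Each had 1 probe set, and 9 of the 10 read above the detection level explained below on at least 1 array. The genes were chosen by their log2 levels on these same 3 arrays, with the differences already known, so those values are a description and carry no test.

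Affymetrix arrays measured expression in LT-HSCs, the long-term stem cells of marrow that renew blood over a lifetime. Of the 3 groups, 1 had received 8 Gy of total body irradiation (TBI) as FLASH, an ultra-high dose rate, 1 had received 8 Gy at CDR, taken here as conventional dose rate because the labels do not expand it, and 1 was non-irradiated. All mice were female C57Bl/6 aged 8 to 10 weeks, and 10000 LT-HSCs were taken per preparation, on day 15 after TBI in irradiated mice. Every group had 1 array, so no difference has a replicate check, and the sources used here give neither the number of mice behind an array nor the sorting gate.

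A plasma cell forms when a B cell switches on Prdm1 and Irf4, shuts down its B cell programme and, through Xbp1, enlarges the endoplasmic reticulum (ER) that folds and exports antibody. Jchain then links antibody units into IgM and IgA polymers. Bone marrow houses long-lived plasma cells as well as blood stem cells, while LT-HSCs themselves are not antibody-secreting.

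The promoters of Jchain, Pou2af1 and Slamf7, the 3 members that differed most between the irradiated arrays, are shown with that of Derl3, a member with equal values on all arrays. Each line gives the 250 bases before the RefSeq transcript start in build GRCm38.p6, read along the gene's strand, and capitals mark ACGTG on either strand, the core of sites of the unfolded protein factors XBP1 and ATF6. In Derl3 the capitals also mark the ER stress element, CCAAT and CCACG parted by any 9 bases, which lies there on the opposite strand.
Jchain (chr5:88527898-88528147, minus strand): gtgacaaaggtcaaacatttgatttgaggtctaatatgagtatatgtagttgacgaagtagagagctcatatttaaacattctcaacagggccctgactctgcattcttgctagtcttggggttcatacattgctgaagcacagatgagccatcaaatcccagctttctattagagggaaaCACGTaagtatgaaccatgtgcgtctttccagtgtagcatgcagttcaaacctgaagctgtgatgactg
Pou2af1 (chr9:51213440-51213689, plus strand): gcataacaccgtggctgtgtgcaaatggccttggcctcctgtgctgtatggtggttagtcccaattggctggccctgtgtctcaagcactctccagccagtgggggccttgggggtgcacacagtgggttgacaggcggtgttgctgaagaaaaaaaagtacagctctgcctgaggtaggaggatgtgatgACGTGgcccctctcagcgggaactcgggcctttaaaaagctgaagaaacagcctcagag
Slamf7 (chr1:171649000-171649249, minus strand): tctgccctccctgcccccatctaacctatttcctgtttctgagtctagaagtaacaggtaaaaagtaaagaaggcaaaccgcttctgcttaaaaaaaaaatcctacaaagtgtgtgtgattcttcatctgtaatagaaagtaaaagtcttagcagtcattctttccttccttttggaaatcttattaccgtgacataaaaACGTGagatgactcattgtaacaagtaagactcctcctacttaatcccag
Derl3 (chr10:75893148-75893397, plus strand): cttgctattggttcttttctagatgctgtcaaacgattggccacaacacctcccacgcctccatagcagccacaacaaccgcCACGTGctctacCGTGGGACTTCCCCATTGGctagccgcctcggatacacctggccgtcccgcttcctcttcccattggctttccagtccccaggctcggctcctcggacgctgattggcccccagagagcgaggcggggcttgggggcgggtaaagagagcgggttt

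RefSeq windows running from 250 before to 50 after each start, were found for 9 members, all except Mzb1, and Txndc5 had 3 of them. The core ACGTG was present for 5 of these 9 genes, against 21.8% of all 27025 genes with a window. The 5 were Jchain, Pou2af1, Slamf7, Derl3 and Txndc5, so genes with large differences and genes with equal values both held it. Its nearest base lay 65 bases before the start in Jchain, 55 in Pou2af1 and 46 in Slamf7. The ER stress element was in Derl3 alone among the members and in 0.137% of all genes. The octamer ATGCAAAT, bound by POU2F factors with the Pou2af1 product, was in 0 of the 9 and in 1.97% of all genes. The composite of ETS and IRF sites, GGAA and GAAA parted by any 2 bases, was also in 0 of the 9, against 3.16% of all genes, and the IRF pair, GAAA and GAAA parted by any 2 bases, was in Txndc5 alone, against 3.99%. All motifs were sought on both strands, the composite and the pair can share bases, and a match is not evidence of binding.

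Levels are the authors' processed values, read as log2, and are compared between arrays within a gene only. The detection level of an array was the 95th percentile of 1364 genes for olfactory, vomeronasal or trace amine receptors, which blood cells were assumed not to express. It was 4.22 for FLASH, 4.16 for CDR and 4.15 for non-irradiated. A gene counted as detected in a comparison where the brighter of its 2 arrays exceeded its level. Of 13 measured LT-HSC markers 13 were above it on every array, with summed log2 levels of 91.6 on FLASH, 89.5 on CDR and 98.1 on non-irradiated. Against non-irradiated, 11 of the 13 were lower on FLASH and 12 of the 13 on CDR, beside 33% and 30.4% of all detected genes. On CDR, Procr was at -1.73 and Meis1 at -1.26. Hlf, a stem cell transcription factor, read 8.02 on FLASH, 7.92 on CDR and 9.92 on non-irradiated. Slamf1, the marker CD150, was nearly level, reading 6.24 on FLASH, 6.11 on CDR and 6.13 on non-irradiated. The myeloid granule genes Mpo and Elane were also high on all arrays, Mpo at 12.45, 12.52 and 12.36 in the same order.

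**Figure D1:**
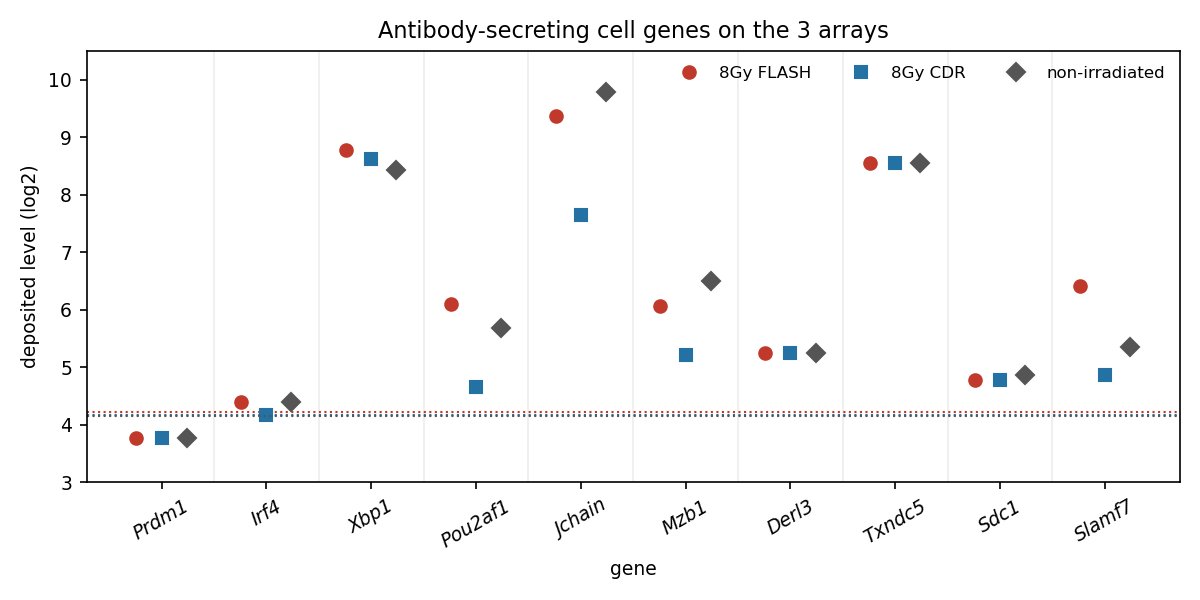
Deposited log2 level (y axis) of each antibody-secreting cell gene (x axis) on the 8Gy FLASH (circle), 8Gy CDR (square) and non-irradiated (diamond) arrays, 1 point per array, with no error bars because each group had 1 array. Dotted lines are the detection levels of the arrays; Prdm1 lies under all of them, and the CDR array is lowest for Jchain, Mzb1, Pou2af1, Slamf7 and Irf4.

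The 10 genes did not move as a block. Jchain, Mzb1 and Pou2af1 were lower on the CDR array than on both others, Slamf7 was highest on the FLASH array, and Prdm1, Derl3 and Txndc5 held exactly the same value on all 3 arrays. The CDR array was strictly the lowest for 5 of the 9 detected members, against 13% of the 13527 genes detected on any array. The members were chosen with these values known, so nothing is read from that gap. Exact ties were common in this table. All 3 arrays were tied for 27.2% of the genes detected on any array and for 2 of the 9 detected members, which is near the background. The 99th percentile of the genes assumed not expressed was 5.34 on FLASH, 5.42 on CDR and 5.33 on non-irradiated. Only 3 members exceeded it on all arrays (Jchain, Xbp1 and Txndc5). Pou2af1, Slamf7 and Mzb1 lay under it on CDR, so their low values there were within the range of those genes.

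Prdm1, which encodes Blimp-1, the repressor that drives plasma cell formation, read 3.76 on the FLASH, CDR and non-irradiated arrays. It was under the detection level throughout, so no difference could be measured for the gene. Irf4, the factor that acts with it, read 4.39 on FLASH, 4.17 on CDR and 4.39 on non-irradiated cells. The CDR value lay at its detection level, and the others only just above theirs. Xbp1, the ER expansion factor, read 8.77 on FLASH, 8.62 on CDR and 8.43 on non-irradiated. Its differences were small, at 0.14 between FLASH and CDR and 0.34 between FLASH and non-irradiated. Array signal for Xbp1 covers the gene as a whole and does not separate the spliced, active form.

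Pou2af1, the B lineage coactivator also called OBF-1, read 6.11 on FLASH, 4.65 on CDR and 5.67 on non-irradiated. FLASH and non-irradiated were the higher values and CDR stood apart below. The log2 difference was 1.46 between FLASH and CDR (2.75-fold higher), -1.03 between CDR and non-irradiated (2.04-fold lower) and 0.43 between FLASH and non-irradiated (1.35-fold higher).

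Jchain, the joining chain of polymeric antibody, read 9.37 on FLASH, 7.65 on CDR and 9.79 on non-irradiated. It was far above the detection level on all of them and lowest on CDR. FLASH exceeded CDR by 1.72 (3.30-fold), CDR was at -2.14 against non-irradiated (4.40-fold lower), and FLASH was at -0.41 against non-irradiated (1.33-fold lower). With the V, D and J segments of the antibody and T cell receptor loci set aside, Jchain had the highest positive difference between FLASH and CDR of 13028 detected genes, with Slamf7 at place 3 and Pou2af1 at place 6. With segments kept in, their places among 13184 genes were 66, 73 and 77. Segments were set aside after seeing the data, and the members were chosen with these differences known, so nothing is read from the places.

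Mzb1, an ER chaperone of antibody assembly in marginal zone B cells and plasma cells, followed the same order. It read 6.06 on FLASH, 5.22 on CDR and 6.50 on non-irradiated cells. The difference was 0.84 between FLASH and CDR (1.79-fold higher), -1.29 between CDR and non-irradiated (2.44-fold lower) and -0.44 between FLASH and non-irradiated. The other secretion genes differed by nothing in the deposited values. Derl3, which takes misfolded proteins out of the ER, read 5.24 on each of the FLASH, CDR and non-irradiated arrays. Txndc5, a protein disulphide isomerase, read 8.55 on each.

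Among the surface proteins, Sdc1, or CD138, the marker used to sort plasma cells, read 4.77 on FLASH, 4.77 on CDR and 4.87 on non-irradiated cells. It was above the detection level on each array and nearly level between them. Slamf7, a receptor of plasma cells that natural killer and dendritic cells also carry, read 6.40 on FLASH, 4.86 on CDR and 5.35 on non-irradiated. FLASH was the highest and CDR the lowest. The difference was 1.55 between FLASH and CDR (2.92-fold higher), -0.50 between CDR and non-irradiated and 1.05 between FLASH and non-irradiated (2.07-fold higher).

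The comparison of FLASH with CDR was between dose rates at a fixed dose. With 1 array per group, dose rate cannot be told apart from array or preparation. Of 9 detected members, 3 were at least 2-fold higher on FLASH (Jchain, Slamf7 and Pou2af1) and 0 at least 2-fold lower, beside 0.85% and 0.144% of 13184 genes in those directions, or 0.238% higher without segments. The values that chose the members include this comparison, so nothing is read from that gap. By any amount 6 members were higher, 0 lower and 3 tied, beside 25.6%, 31.9% and 42.4% of detected genes. The median difference was 0.22 over the detected members and 0.18 over all 10, beside 0.00 over all detected genes. With an offset of 32 added before the log, which shrinks differences of dim genes, Slamf7 stood at 0.94 and Pou2af1 at 0.82, and Jchain alone passed 2-fold.

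The comparison of CDR with non-irradiated cells had 3 of 9 detected members at least 2-fold lower (Jchain, Mzb1 and Pou2af1) and 0 at least 2-fold higher. Those directions held 2.36% and 0.766% of 13448 genes. The values that chose the members include this comparison too, so nothing is read from that gap. By any amount 6 were lower, 2 were tied and Xbp1 alone was higher, by 0.20, beside 30.4%, 34.9% and 34.7% of detected genes. Pou2af1 was at the edge of the 2-fold count and stood at -0.97 with the arrays centred on their medians, and with the offset Jchain alone passed. The members' median was -0.22, beside 0.00 over all detected genes. The CDR array enters both of these comparisons with opposite sign, so a low value on that 1 array shows in each, and they are not separate evidence.

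The comparison of FLASH with non-irradiated cells had Slamf7 at least 2-fold higher and 0 of 9 detected members at least 2-fold lower, beside 1.17% and 1.75% of 13288 genes in those directions. By any amount 3 members were higher (Slamf7, Pou2af1 and Xbp1), 3 lower (Mzb1, Jchain and Sdc1) and 3 tied, close to the 33.8%, 33% and 33.2% of detected genes. The median was 0.00. With the offset Slamf7 stood at 0.68 and no member passed 2-fold.

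**Figure D2:**
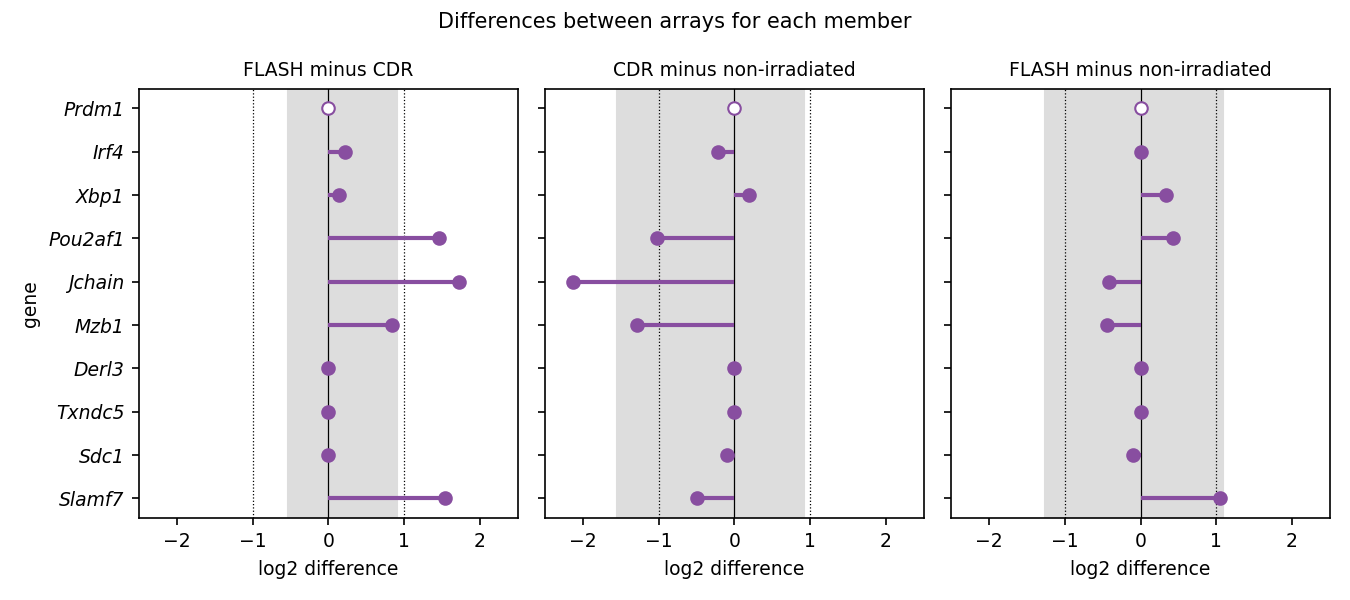
Log2 difference (x axis) of each member (y axis) for FLASH minus CDR, CDR minus non-irradiated and FLASH minus non-irradiated, each from 1 array per group. Grey bands run from the 1st to the 99th percentile of all detected genes, dotted lines mark a 2-fold difference and the open point is Prdm1, which was not detected; Jchain, Slamf7 and Pou2af1 lie beyond the band in the first panel, Jchain alone in the second and no member in the third.

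Antibody constant regions were set beside the members because Jchain links their products. Igha, the IgA constant region, read 11.21 on FLASH, 9.95 on CDR and 11.31 on non-irradiated. Ighm, that of IgM, read 11.64, 10.49 and 11.83 in the same order, and Igkc, the kappa light chain, 12.46, 11.82 and 12.55. All of them had the order of Jchain and Mzb1, with non-irradiated highest and CDR lowest. The IgG genes did not share it. Ighg2b was at 3.90 on FLASH, under the detection level and at least 4.70-fold lower than the 6.45 on CDR, and Ighg2c read 3.61 on FLASH, 4.34 on CDR and 8.84 on non-irradiated.

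These levels come from bulk RNA, in which fewer cells of a type and less RNA per cell cannot be told apart. B cell identity genes, many but not all of which plasma cells switch off, were checked as a list. Of 28 measured, 19 were above the detection level on FLASH, 18 on CDR and 20 on non-irradiated, and the summed log2 level was 159.4, 152.8 and 157.0 in that order. That sum also takes in Dntt and the MHC class II genes H2-Eb1, H2-Aa, H2-Ab1 and Cd74, which dendritic cells share. It is therefore not a measure of B cells alone. Ms4a1, which encodes CD20, read 2.72 on FLASH, 2.55 on CDR and 2.55 on non-irradiated, and Cd22, a B cell inhibitory receptor, 3.23 on each, all under the detection level. The regulator Pax5 read 5.07 on every array. The signal chain Cd79a was at 5.11 on FLASH, 4.83 on CDR and 5.39 on non-irradiated, so it shared the order of Jchain, while Cd79b was at 8.05, 8.58 and 9.04 and was lowest on FLASH. Dntt, the polymerase of early lymphoid receptor rearrangement, was at 6.90, 6.30 and 8.99. Cd72, a B cell coreceptor, was at -1.04 between CDR and non-irradiated and -0.97 between FLASH and non-irradiated. Whether B lineage cells in the sorted samples had a part in the differences of Jchain, Mzb1 and Pou2af1 was not tested.

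Of the other detected B cell list members at least 2-fold apart, H2-Eb1, H2-Aa, H2-Ab1 and Cd74 belong to MHC class II presentation, which dendritic cells share. Between FLASH and non-irradiated, H2-Eb1 differed by 2.36, H2-Aa by 1.83, Cd74 by 1.74 and H2-Ab1 by 1.23. Most dendritic cell markers were higher on FLASH than on non-irradiated, 8 of the 9 detected, against 33.8% of detected genes. Ifi205 and Itgax were under the detection level on non-irradiated and counted as detected only through FLASH, so their direction was fixed by that rule. Of 10 measured, 9 were above the detection level on FLASH, 8 on CDR and 7 on non-irradiated, and the summed log2 level was 59.1, 53.9 and 48.1 in that order. Clec9a read 6.38 on FLASH, 5.18 on CDR and 4.23 on non-irradiated, and Xcr1 read 6.11, 5.24 and 4.20. Between CDR and non-irradiated, Clec9a was at 0.95, Xcr1 at 1.04 and Slamf7 at -0.50. Flt3, a cytokine receptor that progenitors also carry, was lowest on FLASH, at 7.22 against 7.64 on CDR and 8.69 on non-irradiated, and Clec10a was highest on CDR, at 4.86 on FLASH, 5.07 on CDR and 4.50 on non-irradiated. The dendritic cells' part in the Slamf7 difference was not tested.

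Of the remaining cell types a marrow sort could hold, natural killer markers had summed levels of 46.6 on FLASH, 46.1 on CDR and 46.0 on non-irradiated, with 5 of 9 above the detection level on each. T cell markers had 44.2, 42.9 and 44.2, with 5, 5 and 6 of 11 above it, and Cd3d and Cd3e under it on all arrays. The plasmacytoid dendritic cell list had 57.1, 56.4 and 59.7, with 6 of 11 above it on each array. Its defining marker Siglech was under the level on all arrays. The lists for neutrophils, monocytes and erythroid cells summed to 101.8, 72.7 and 66.7 on FLASH, to 101.9, 75.4 and 64.7 on CDR and to 104.4, 73.8 and 56.5 on non-irradiated. Of these sums, the T cell and plasmacytoid dendritic cell lists were lowest on CDR, as those of the LT-HSC and B cell lists were. The sums include undetected genes. The plasmacytoid dendritic cell sum was lower on CDR than on FLASH through Ly6d, whose difference of 0.95 was larger than the gap between those sums. Of the 6 markers of that list detected between FLASH and CDR, 2 were higher, 2 lower and 2 tied. Of the 5 T cell markers detected between FLASH and CDR, 1 was higher, 0 lower and 4 tied. The same directions held 25.6%, 31.9% and 42.4% of all detected genes. The part of these cells in the Jchain, Mzb1 and Pou2af1 values was not tested.

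The ER genes that serve antibody export were mostly a little higher on both irradiated arrays. This list of 58 genes for translocation, folding, degradation and export had 57 detected, and 42 of them were higher and 5 lower on CDR than on non-irradiated, against 34.7% and 30.4% of detected genes. On FLASH against non-irradiated, 41 were higher and 8 lower, against 33.8% and 33% of detected genes. The median was 0.19 in both comparisons, which share the non-irradiated array, and 0.00 between FLASH and CDR. There 19 were higher, 25 lower and 13 tied, beside 25.6%, 31.9% and 42.4% of detected genes. The differences were small. Of the 57 detected genes Ero1a alone, an ER oxidase, passed 2-fold, at 1.10 between CDR and non-irradiated. In that comparison 0.766% of all detected genes were at least 2-fold higher. Ero1a was at 0.86 between FLASH and non-irradiated.

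The chaperone partners Sdf2l1 and Creld2 both stood at 0.75 between FLASH and non-irradiated, and at 0.67 and 0.62 between CDR and non-irradiated. Dnajb9, a cochaperone of BiP and a target of XBP1, was lower, at -0.62 on both irradiated arrays against non-irradiated. Hsp90b1, the chaperone GRP94, had the highest difference of the list between FLASH and CDR, at 0.29, followed by Pdia4, a disulphide isomerase, at 0.25. Ero1a and Spcs2, a signal peptidase subunit, had the lowest, at -0.24 and -0.20.

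Receptors and partner regulators of plasma cells had 23 of 29 measured genes detected. Between CDR and non-irradiated 3 were higher, 15 lower and 0 at least 2-fold apart, with a median of -0.19, beside 34.7% of all detected genes higher and 30.4% lower. Between FLASH and non-irradiated 3 were higher and 15 lower, with a median of -0.12, beside 33.8% and 33% of all detected genes. Between FLASH and CDR 10 were higher, 9 lower and 4 tied, beside 25.6%, 31.9% and 42.4% of all detected genes. There the median was 0.00 and 0 genes of the list were at least 2-fold apart. Tnfrsf17, the survival receptor BCMA, read 4.46 on FLASH, 4.05 on CDR and 4.46 on non-irradiated, and only CDR was under its detection level. Tnfrsf13b, the related receptor TACI, read 4.35, 4.73 and 4.92 and was lowest on FLASH. Cd28, a costimulatory receptor with a role in plasma cell survival, had the highest difference between FLASH and CDR, at 0.60, and was at -0.72 between CDR and non-irradiated.

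Tent5c, a poly(A) polymerase that stabilises antibody messages, was at 0.45 between FLASH and CDR and 0.65 between FLASH and non-irradiated. Ern1, which encodes IRE1, the kinase and nuclease that splices Xbp1 message, read 7.72 on FLASH, 8.17 on CDR and 8.41 on non-irradiated. It had the lowest difference of the list between FLASH and CDR, at -0.44, next to Tnfrsf13b at -0.38. Cd27, a receptor of the TNF family, had the lowest differences from non-irradiated, reading 9.16 on FLASH, 9.13 on CDR and 10.13 on non-irradiated. Tnfrsf13c, the BAFF receptor, read 6.13, 6.03 and 6.79. Both had the order of Jchain, with CDR only slightly under FLASH. Atf6, a factor of the unfolded protein response, was at 0.29 between CDR and non-irradiated and 0.00 between FLASH and non-irradiated.

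**Figure D3:**
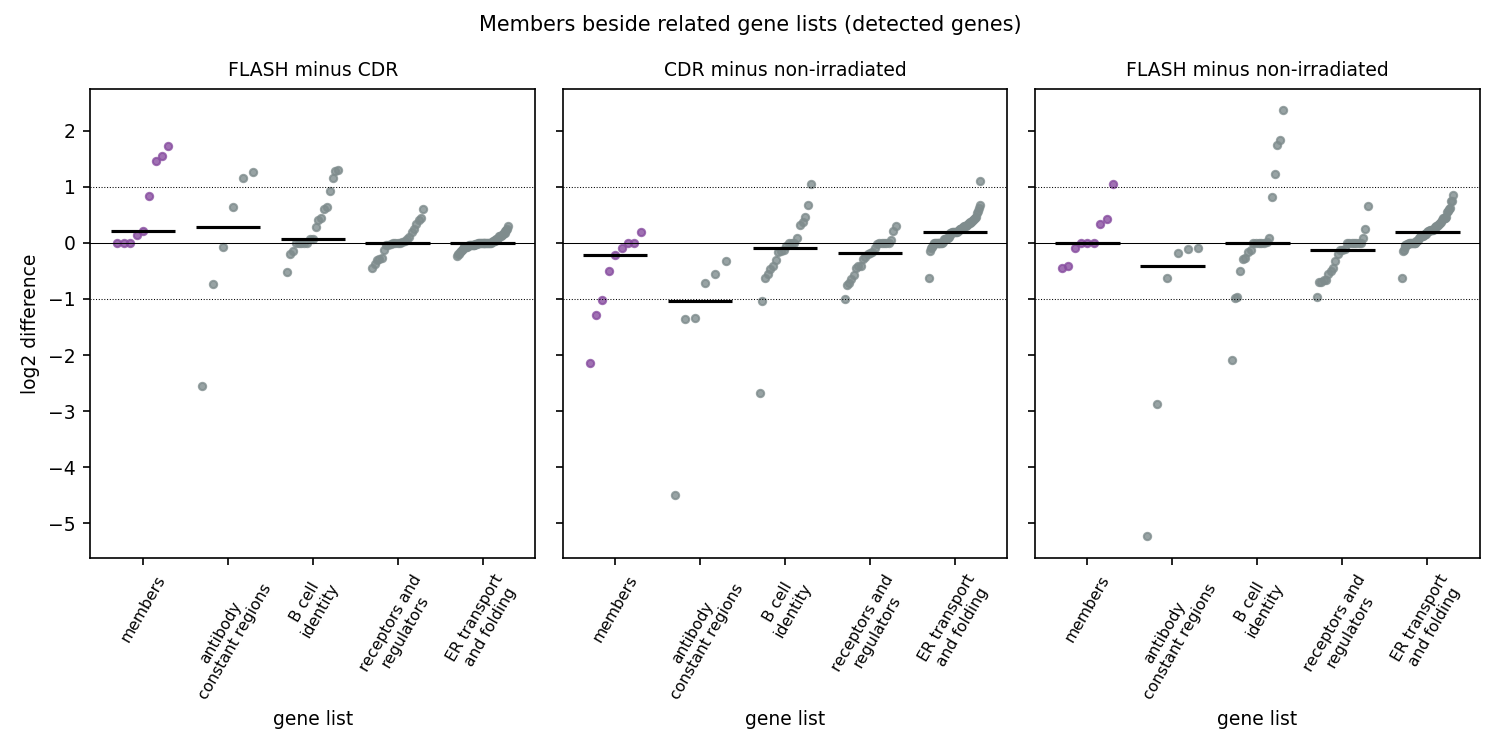
Log2 difference (y axis) of every detected gene in the members and 4 related gene lists (x axis) for the 3 comparisons; each point is a gene, short black lines are medians and dotted lines mark a 2-fold difference. Members spread upward between FLASH and CDR, while the ER genes stay within 0.29 of 0 there and have a median of 0.19 on both irradiated arrays against non-irradiated.

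Genes with the pattern most like that of Jchain and Pou2af1 were sought among 12199 others detected on any array, segments and gene models left out, by the Euclidean distance between their 2 differences from the non-irradiated array. The pattern rests on 3 arrays. For Jchain the nearest were Phlda2, P2ry10, Procr, Trbc2 and Ly6d, at distances of 0.50 to 0.60, all with CDR lowest and non-irradiated highest. Phlda2 and P2ry10 were under the detection level on CDR, so their differences there are bounds (at least 2.69-fold and 2.66-fold lower than non-irradiated) and their distances and places are uncertain. Procr, the stem cell marker EPCR, read 6.33 on FLASH, 5.42 on CDR and 7.15 on non-irradiated. Trbc2, a T cell receptor constant region, read 7.90, 6.67 and 8.23, and Ly6d, an early lymphoid marker, 6.38, 5.44 and 7.35. Procr, Trbc2 and Ly6d are single genes, and other markers of their cell types did not all share this order. CDR was strictly lowest for 8 of the 13 LT-HSC markers, against 13% of genes detected on any array, while Kit was lowest on FLASH. The T cell markers Cd3d and Cd3e were under the detection level on all arrays.

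For Pou2af1 the nearest were Rhoc, Tnfsf13, Serpinb6b, Hax1 and Zfp738, at distances of 0.17 to 0.42, all with FLASH highest and CDR lowest in deposited values. Hax1 was under the detection level on both CDR and non-irradiated, and Tnfsf13 on CDR, so their places are uncertain. Rhoc, a small GTPase, read 6.80 on FLASH, 5.33 on CDR and 6.25 on non-irradiated. Tnfsf13 encodes APRIL, the ligand of BCMA and TACI. It read 5.51 on FLASH, 3.94 on CDR and 5.28 on non-irradiated, and FLASH was at least 2.54-fold higher than CDR. The related ligand gene Tnfsf13b, or BAFF, named after its values were seen, read 3.53 on every array and was under the detection level.

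**Figure D4:**
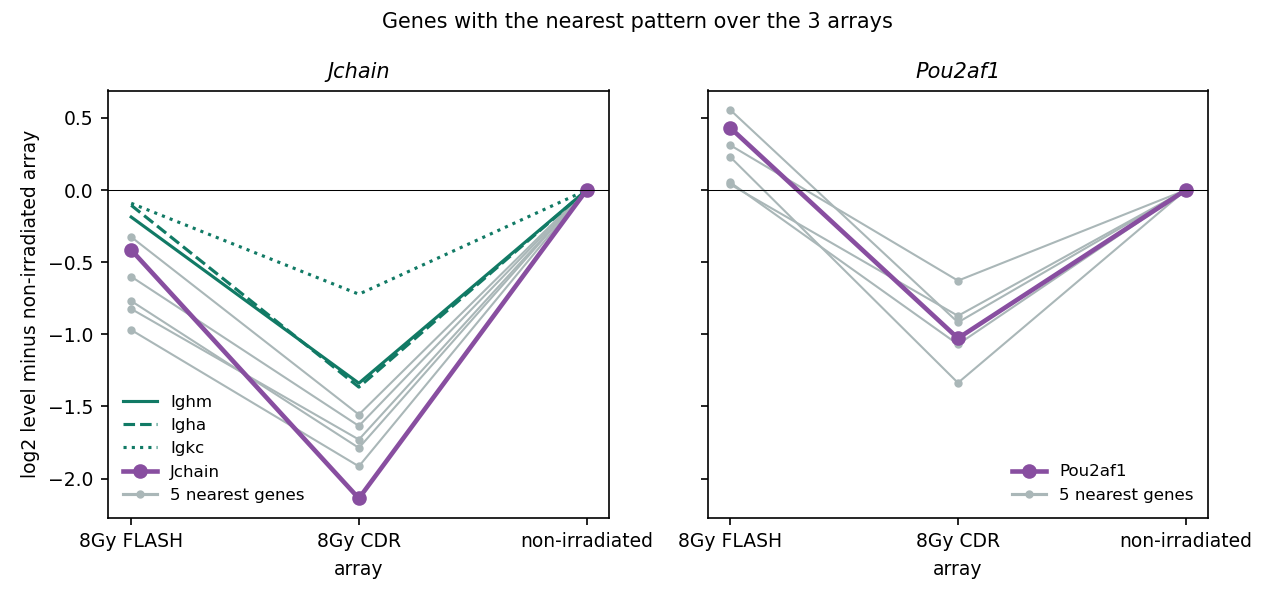
Log2 level relative to the non-irradiated array (y axis) on the FLASH, CDR and non-irradiated arrays (x axis) for Jchain (left) and Pou2af1 (right), each with its 5 nearest genes in grey, and for Ighm, Igha and Igkc in green. All lines share the non-irradiated array as 0, and every line is lowest on CDR.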

How the data were processed

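Total RNA of sorted LT-HSCs was labelled with biotin for Affymetrix whole transcript arrays, per the labels' protocols. The authors deposited 1 processed value per probe set and array, read as log2 from its range. Partek is named, with no version, in the submitters' processing notes; the sources used here do not give how background, summarisation or normalisation were handled. Of 25206 probe sets, 23185 carried 1 symbol in the platform table and 2021 were unnamed; each symbol equalled RefSeq's by gene identifier. Array medians over all probe sets were 4.62 for FLASH, 4.62 for CDR and 4.66 for non-irradiated.

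Differences are of log2 values as deposited. With 1 array per group no test was made, and the number of arrays limits precision. Where the dimmer array lay under its detection level, the fold is "at least" against that level. Members and gene lists were chosen with earlier results of these data known. Named genes are all members, the 2 highest and 2 lowest detected genes of a list in a comparison, list genes at least 2-fold apart, and the 5 nearest to Jchain and to Pou2af1; a selection of these is described. Other list genes were named as markers after their values were seen. Steps were tested on simulated data. Python 3.11.15, numpy 2.4.6, pandas 2.3.3, R 4.3.3 and limma 3.58.1 were used.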

Additional observations from a re-analysis of the deposited data

Results flagged for a closer look

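Pou2af1 and Slamf7 departed from the non-irradiated array in opposite directions on the irradiated arrays. Pou2af1 was at 0.43 on FLASH and -1.03 on CDR, a gap of 1.46 on the log2 scale. Slamf7 was at 1.05 on FLASH and -0.50 on CDR, a gap of 1.55. Each group had 1 array and the difference was not tested.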

How the results depend on the processing

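Alternatives were median centring, quantile normalisation, cyclic loess, an offset of 32 added before the log, dim values raised to the detection level, use of all genes, a stricter filter (a gene's mean beyond the unexpressed genes' 99th percentile), and fold thresholds of 1.5 and 3. The yardstick for a moved value was the SD of the same difference over the 1364 unexpressed genes, 0.18 for FLASH minus CDR and 0.21 for each of the others, since there are no replicates. Of 135 recomputed single-member values 128 stayed within it, 7 moved, all under the offset, and 0 reversed. Raising dim values could move none of them, because every detected member lay above the detection level on all arrays. Median centring shifts all genes alike, by -0.03 for FLASH minus CDR, 0.06 for CDR minus non-irradiated and 0.02 for FLASH minus non-irradiated. That is less than the yardstick, so those values could not move either. With the offset, members at least 2-fold apart numbered 1 for FLASH minus CDR, 1 for CDR minus non-irradiated and 0 for FLASH minus non-irradiated, and these were also the counts at 3-fold. Median centring and quantile normalisation left 2 members at least 2-fold lower on CDR than on non-irradiated, against 3 as deposited. The stricter filter, which 6 members passed, gave medians of 1.15 for FLASH minus CDR and -0.76 for CDR minus non-irradiated, and the mean in place of the median gave 0.66 and -0.56. Leaving segments out of the background, chosen after seeing the data, changes that share and no member's count. No paired analysis was possible because each group had 1 array.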
